A study of Mus musculus with 20 samples.

Results

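Potassium channel genes were followed in the hippocampus of mice that had received small RNAs (sRNAs) from human post-mortem hippocampus. They were taken by name and class, as the protein-coding genes of the deposited count table whose name starts with Kcn. That rule uses no measured value, but the class was chosen with earlier results of these data known. The rule found 88 genes among the 25190 in the table, and 5 genes with such a name that are not protein-coding were left out. By the start of the name, 29 encode pore-forming subunits of voltage-gated channels (Kcna, Kcnb, Kcnc, Kcnd, Kcnq, Kcnh). Another 10 encode modifier subunits that alter voltage-gated channels but do not form one alone (Kcnf, Kcng, Kcns, Kcnv). A further 8 encode channels grouped by name with those opened by calcium or sodium (Kcnma, Kcnn, Kcnt, Kcnu). The rest encode 14 inward rectifiers (Kcnj), 12 two-pore leak channels (Kcnk) and 15 accessory subunits or regulators (Kcnab, Kcnip, Kcne, Kcnmb, Kcnrg).

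All mice were wild-type males of the strain C57BL/6JOlaHsd, 4 months old by the labels, and all were infused through bilateral cannulas in the dorsal hippocampus. The Vehicle group was given artificial cerebrospinal fluid, the Control group sRNAs pooled from people without a psychiatric disorder, and the Pool 1 and Pool 2 groups sRNAs pooled from separate sets of patients with schizophrenia. Hippocampal tissue was taken 24 h after the last behavioural test, and polyadenylated RNA was sequenced in 20 libraries, 5 per group. Because each group received 1 pooled preparation, the 5 mice of a group replicate the infusion and not the donors. In bulk tissue, fewer cells of a type and less RNA per cell cannot be told apart.

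Potassium channels let potassium leave or enter the cell along its gradient and so set the resting potential, end the action potential and limit repetitive firing. Pyramidal neurons of the hippocampus are known for the A-type current of Kv4 channels in dendrites, the M-current of Kv7 channels and the afterhyperpolarization carried by calcium-activated channels. Fast-spiking interneurons rely on Kv3 channels, astrocytes clear potassium through Kir4.1, and the choroid plexus epithelium, which makes cerebrospinal fluid, has channels of its own.

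Libraries held 20588280 to 25543939 counts, of which the 88 genes took 0.54 to 0.655%. Counts were above 0 in every library for 81 of the genes, and the mean normalized count was 10 or more for 79. The other 9 were Kcne3, Kcnj5, Kcnq1, Kcnn4, Kcnk7, Kcna10, Kcnk15, Kcnj15 and Kcnv2, of which the last 5 averaged under 3 counts per library. The hippocampal markers Prox1, Wfs1, Neurod6, Zbtb20, Camk2a, Gad1 and Lhx2 were present in all 20 libraries, the lowest value being 45.3 CPM (counts scaled to a common library total) for Prox1. Some libraries stood apart in markers of other cells: 12 choroid plexus markers summed to 12673 CPM in Vehicle replicate 4, 3440 in Control replicate 3 and 2267 in Pool 2 replicate 3, against 255 to 2010 elsewhere. Microglial markers, 10 in number, summed to 1408 CPM in Pool 2 replicate 1 and to 420.0 to 680.4 in the other 19 libraries. Thalamic markers reached 643 CPM in Pool 2 replicate 4, the highest of the 20 libraries.

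The sequences shown are those upstream of the RefSeq starts of Kcne2 and Kcnj13, chosen because these 2 genes varied most between mice and did so together. Each is 250 bases long and ends at the base before the start (build GRCm38.p6), and capitals mark matches of a TATA box (TATAAA) or a GC box (GGGCGG) on either strand. Kcne2 has 2 starts, with upstream sequences at chr16:92292139-92292388 and chr16:92295366-92295615, both on the plus strand, and that of Kcnj13 lies at chr1:87394730-87394979 on the minus strand.
Kcne2, first start: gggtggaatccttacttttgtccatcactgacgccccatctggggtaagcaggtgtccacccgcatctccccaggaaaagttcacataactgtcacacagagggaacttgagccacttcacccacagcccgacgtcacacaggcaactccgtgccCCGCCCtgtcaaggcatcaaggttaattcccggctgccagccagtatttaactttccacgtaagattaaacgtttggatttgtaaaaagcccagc
Kcne2, second start: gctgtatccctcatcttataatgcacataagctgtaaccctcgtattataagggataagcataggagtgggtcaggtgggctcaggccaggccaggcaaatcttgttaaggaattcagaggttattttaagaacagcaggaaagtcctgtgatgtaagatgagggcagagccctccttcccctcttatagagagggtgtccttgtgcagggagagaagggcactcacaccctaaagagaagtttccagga
Kcnj13: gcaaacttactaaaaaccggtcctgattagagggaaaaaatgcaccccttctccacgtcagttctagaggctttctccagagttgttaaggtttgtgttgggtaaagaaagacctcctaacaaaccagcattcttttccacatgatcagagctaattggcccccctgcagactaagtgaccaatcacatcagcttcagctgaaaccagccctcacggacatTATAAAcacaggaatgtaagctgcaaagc
Kcnj13 held TATAAA 29 bases before its start, a word found in 12.4% of 32841 mouse sequences of the same kind, and the first Kcne2 start had GGGCGG on the opposite strand (32.7%). The third word searched, TAATCC, which homeodomain proteins of the Otx type bind, was in none of the 3 windows and in 6.25% of all. The G and C content of the 3 sequences was 52.4, 48.0 and 45.2%, against a median of 58.8% over the 89 sequences of the 64 potassium channel genes that RefSeq matched and 52.4% over all.

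Levels of different genes were compared per length, as CPM divided by the length of all exons in kilobases (RPKM, with TMM-scaled library sizes). Kcnab2, the beta subunit that accompanies Kv1 channels, had the highest level, at 173 ± 21.7 RPKM (SD, n = 20), and Kcnip2, a calcium sensor of Kv4 channels, followed at 58.7 ± 5.66. Kcnab2 was above Kcnip2 in 20 of 20 libraries. Accessory subunits held 34.4% of the summed RPKM of the 88 genes and pore-forming voltage-gated subunits 32.5%. Inward rectifiers held 16.3%, leak channels 7.4%, modifiers 5.45% and calcium- or sodium-activated channels 3.96%. These shares describe RNA and say nothing of how many subunits assemble.

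**Figure D1:**
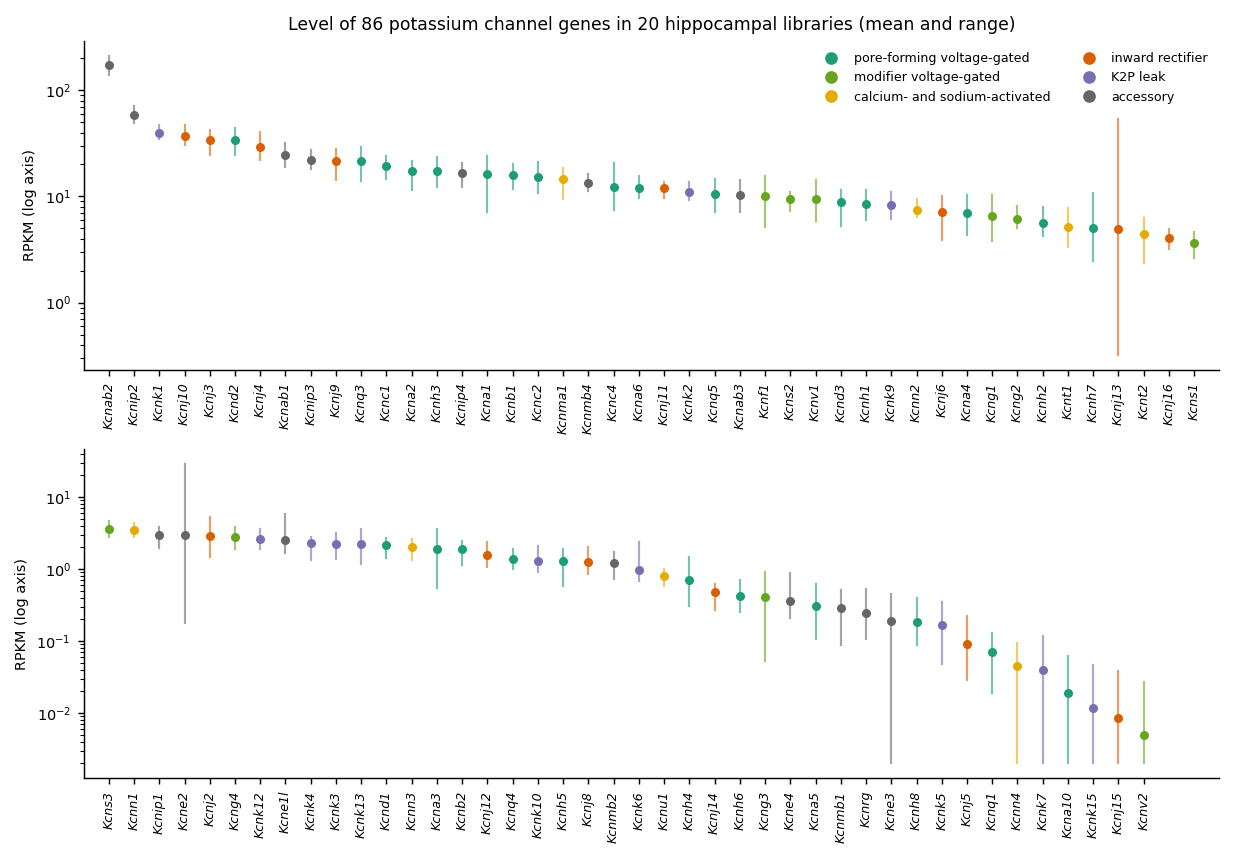
Mean level (point) and lowest to highest of 20 libraries (line) of 86 of the 88 genes in RPKM on a log axis, ordered by mean and coloured by family, with values of 0 drawn at the bottom of the axis. The means run from 173 RPKM for Kcnab2 to below 0.01 for Kcnj15 and Kcnv2, and among genes with a mean above 1 RPKM Kcnj13 and Kcne2 have by far the longest lines.

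Lower levels, from 29.1 to 39.8 RPKM, were held by genes of several families. The leak channel gene Kcnk1 had 39.8 ± 3.63 RPKM and the astrocytic Kir4.1 gene Kcnj10 37.0 ± 4.46, with Kcnk1 the higher in 16 of 20 libraries. Kcnj3, a G-protein-activated rectifier of neurons, had 33.9 ± 4.78 RPKM. Kcnd2, the main Kv4 gene of pyramidal dendrites, had 33.7 ± 4.14 RPKM, and Kcnj3 was the higher of these in 9 of 20 libraries, so their order was not firm. Kcnj4 stood at 29.1 ± 4.48 RPKM.

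Below Kcnj4 came Kcnab1 (24.7 ± 3.96 RPKM), Kcnip3 (22.2 ± 2.43), the G-protein-activated rectifier Kcnj9 (21.7 ± 3.81), the Kv7 gene Kcnq3 (21.3 ± 4.16), Kcnc1 (19.5 ± 2.69) and Kcna2 (17.5 ± 3.14). Neighbours among them did not separate clearly except Kcnc1, which was above Kcna2 in 17 of 20 libraries. With the longest transcript in place of all exons as the length, Kcnab1 moved to 48.4 RPKM, so its place depends on the isoform assumed. Other levels moved too, among them Kcnab2 to 246 RPKM, Kcnmb4 to 27.6 and Kcnn2 to 15.2. The family shares used all exons. Of the other genes tied to hippocampal neurons, Kcna1 had 16.2 ± 4.90 RPKM, Kcnc2 15.2 ± 2.48, the BK channel gene Kcnma1 14.4 ± 2.55, Kcnq5 10.7 ± 2.42 and the SK channel gene Kcnn2 7.50 ± 0.915. Apart from Kcnj10, genes known from cells other than neurons had lower levels. The astrocytic Kcnj16 had 4.03 ± 0.547 RPKM, the microglial Kcnk13 2.22 ± 0.612 and the pericyte gene Kcnj8 1.27 ± 0.336. Kcna3, known from immune cells and neurons, had 1.92 ± 0.715 RPKM.

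Most genes varied little between mice. Over the 79 genes whose mean normalized count was 10 or more, the SD of log2 CPM over 20 libraries had a median of 0.289 and was lowest for Kcnk1 (0.128). It was 1.89 for Kcne2 and 1.80 for Kcnj13, far above the next gene, the modifier Kcng3, at 0.823. Kcne2 encodes a small accessory subunit and Kcnj13 the inward rectifier Kir7.1, both known from the choroid plexus epithelium.

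Kcne2 (chr16:92292389-92298129) had 5.56, 5.67, 1.05, 50.5 and 1.77 CPM in Vehicle mice 1 to 5, and 1.83, 0.992, 17.0, 0.318 and 0.840 CPM in Control mice. It had 0.647, 0.807, 1.65, 0.689 and 0.374 CPM in Pool 1 mice, compared with 0.594, 1.25, 13.6, 0.668 and 0.601 in Pool 2 mice. So 1 mouse in each of Vehicle, Control and Pool 2 was far above the rest, and none was in Pool 1. Kcnj13 (chr1:87386363-87394729) was highest within each group in the same 3 libraries, at 68.7 CPM in Vehicle replicate 4, 15.2 in Control replicate 3 and 8.42 in Pool 2 replicate 3, against 0.411 to 9.52 elsewhere, the 9.52 being a Vehicle mouse. These are also the 3 libraries highest in choroid plexus markers. Over 20 libraries, log2 CPM of Kcne2 and the log2 sum of the 12 markers had a Pearson r of 0.962 and a Spearman rho of 0.907, and for Kcnj13 they were 0.979 and 0.937. Without the 2 libraries farthest from the median marker sum, r was 0.920 and 0.950. Kcne2 and Kcnj13 themselves had an r of 0.938 and a rho of 0.808, and r was 0.863 without the same 2. The 20 values share their library's depth, and the markers include neither gene.

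Other genes tied to a cell type followed its markers less closely among the 14 relations computed. With the sum of 10 interneuron markers, r was 0.203 for Kcnc2, -0.031 for Kcnc1, 0.0225 for Kcna1 and 0.0823 for Kcna2. With the microglial sum, r was 0.144 for Kcnk13, -0.505 for Kcna3 and 0.191 for Kcnn4, and with the astrocyte sum it was 0.477 for Kcnj16. These describe 20 libraries of 4 groups and were not tested.

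**Figure D2:**
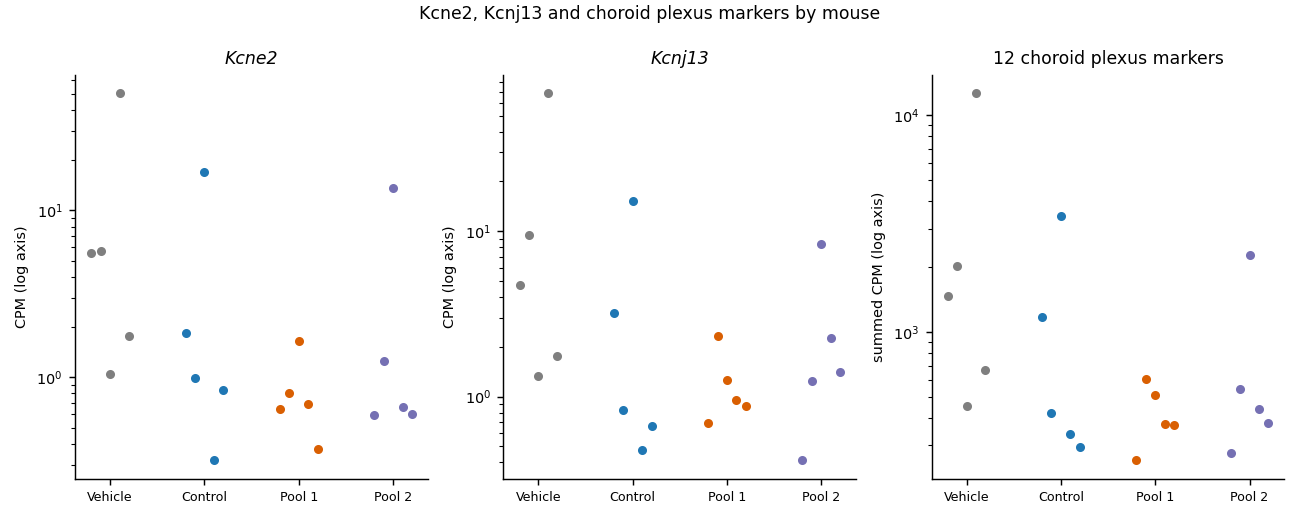
CPM of Kcne2 and of Kcnj13 and the summed CPM of 12 choroid plexus markers, on log axes, with 1 point per mouse in the order of replicates 1 to 5 within each group. The same 3 mice are the highest of their groups in all panels: Vehicle replicate 4, Control replicate 3 and Pool 2 replicate 3.

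Neither gene was past the threshold in any comparison between groups. Their log2 fold changes were among the largest of the 88 except in Pool 2 over Control, at -0.31 for Kcne2 and -0.55 for Kcnj13. Some alternatives did pass: Control over Vehicle for Kcnj13 (-2.09) in 5 of 28, namely DESeq2, the default spread, and without Vehicle replicate 3 or 5 or Control replicate 3 (-3.74), and for Kcne2 in 1, without Control replicate 3 (-3.70). Pool 1 over Control for Kcne2 passed with DESeq2. The direction for Kcne2 turned with single libraries: Pool 2 over Control was -0.31 with all libraries and 1.76 without Control replicate 3, and Control over Vehicle was -1.63 and 0.24 without Vehicle replicate 4. About 49.1% of the exon bases of Kcnj13 lie opposite exons of Gigyf2, the gene on the other strand. The kit kept the strand of the RNA, but which strand setting was counted is not given in the sources used here.

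The 2 questions of the design were whether sRNAs of either patient pool altered hippocampal gene activity relative to control sRNAs. A gene was counted as past the threshold when its log2 fold change was 0.3 or more in either direction and its unadjusted p was under 0.05, the fold and p limits of the study, with p taken from the quasi-likelihood test of edgeR fitted once to all genes and libraries. No potassium channel gene, and none of the 25190 genes, had a Benjamini-Hochberg adjusted p under 0.05 in any of the 4 comparisons by this test. At an unadjusted p under 0.05 there were 7 potassium channel genes in Pool 1 over Control (5.22% of all genes), 8 in Pool 2 over Control (7.7% of all genes), 10 in Pool 2 over Pool 1 (8.52%) and 3 in Control over Vehicle (6.64%). DESeq2 gave an adjusted p under 0.05 to 1 potassium channel gene, Kcne1l in Pool 2 over Pool 1, where it did so for 115 of all genes. It gave one to 7 of all genes in Pool 1 over Control, 18 in Pool 2 over Control and 0 in Control over Vehicle. The study also left out genes with a mean normalized count under 10, which was not done here. Of the genes past the threshold, that filter would take out Kcnn4 (5.32) and Kcne3 (7.78). The comparisons of each pool with Control share the Control libraries.

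In Pool 1 over Control mice, 4 of 88 genes (4.55%) were past the threshold, against 3.48% of all genes. Kcnk12 and Kcna5 were higher, where 1.48% of all genes were, and Kcnk5 and Kcnrg lower, where 1.99% were. In Pool 2 over Control, 6 of 88 (6.82%) were past it, against 6.22% of all genes: Kcne1l, Kcnk12, Kcnk6, Kcnt1 and Kcnn4 were higher (5.2% of all genes) and Kcnmb2 lower (1.01%). In Pool 2 over Pool 1, 6 of 88 (6.82%) were past it, and 6.82% of all genes: Kcne1l, Kcnk5, Kcnj2 and Kcnk6 were higher (5.66% of all genes) and Kcnmb2 and Kcns1 lower (1.16%). The shares of potassium channel genes were thus close to those of all genes in these 3 comparisons. In Control over Vehicle, 2 of 88 genes (2.27%) were past the threshold, against 5.1% of all genes, Kcne3 being higher (1.7%) and Kcnmb1 lower (3.41%), and the groups overlapped for each of the 88 (0.607% of all genes did not).

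**Figure D3:**
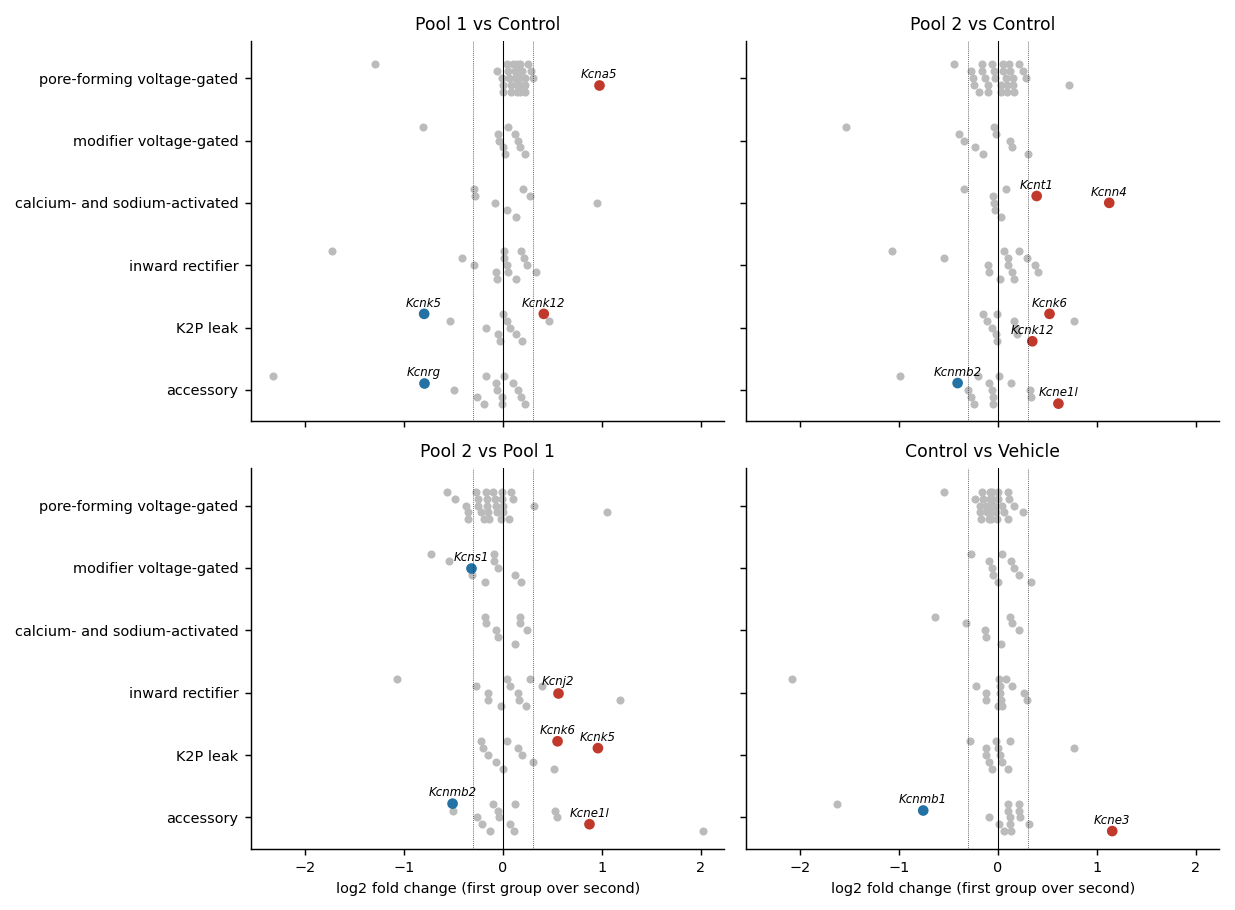
Log2 fold changes of the 88 genes by family in the 4 comparisons, with genes past the threshold in red (higher in the first group named) or blue (lower) and named, and dotted lines at plus and minus 0.3. Most points lie between the dotted lines, and 26 of 29 pore-forming voltage-gated genes are right of 0 in Pool 1 over Control.

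The pore-forming voltage-gated genes shifted by little but mostly one way in Pool 1. Their log2 fold change over Control was above 0 in 26 of 29 genes with a median of 0.15, against 48.9% of all genes and a median of -0.01, and only Kcna5 was past the threshold. In Pool 2 over Control 16 of 29 were above 0 with a median of 0.03, while 50.7% of all genes were above 0. Pool 2 over Pool 1 had 6 of 29 above 0 and a median of -0.14, with 53.5% of all genes above 0, and none past the threshold. Control over Vehicle had 9 of 29 above 0 and a median of -0.07, with 46.8% of all genes above 0.

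These genes vary together from mouse to mouse, so their count is not one of independent signs. The mean log2 CPM over the 27 of them whose mean normalized count was 10 or more was 5.32, 5.25, 5.20, 5.22 and 5.03 in Pool 1 mice and 4.75, 4.96, 5.07, 5.27 and 5.13 in Control mice. In Vehicle mice it was 5.22, 5.21, 5.22, 5.07 and 4.77, and in Pool 2 mice 4.81, 5.18, 5.04, 5.16 and 5.16. The groups overlapped, the 3 lowest mice being 1 each of Control, Vehicle and Pool 2. Without Pool 1 replicate 1, the count in Pool 1 over Control was 18 of 29, and the median ranged from 0.09 to 0.21 over the alternatives tried. The sum of 6 CA1 pyramidal markers, given beside it, was 452 to 1145 CPM in Pool 1 (median 1005) and 488 to 1067 in Control (median 750.2). Pool 1 replicate 1, highest in the mean at 5.32, had the lowest CA1 sum of Pool 1. Control replicate 1, lowest in the mean at 4.75, had the highest CA1 sum of Control. Median sums in Pool 1 and Control were 368 and 388 CPM for dentate granule markers and 390 and 443 for CA2 and CA3 markers. For interneuron markers they were 1042 and 1008 CPM. The part of these cells in the shift was not tested. RNAs without a poly(A) tail, whose reads in poly(A)-selected libraries bear on RNA quality and selection, also differed. The 6 of 8 listed that were in the table summed to 13.5 to 135 CPM in Pool 1 and 1.63 to 10.5 in Control, with 4 of 6 past the threshold higher and no overlap. They summed to 24.5 to 67.0 CPM in Pool 2, again with 4 of 6 higher than in Control, and to 3.31 to 49.2 in Vehicle, and 2 of the 6 were detected in every library. Their part in the shift was not tested.

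The Kv7 genes Kcnq3 and Kcnq5, whose subunits carry the M-current, did not pass the threshold: on the log2 scale they had 0.14 and 0.25 in Pool 1 over Control, and -0.27 and -0.35 in Pool 2 over Pool 1. Without Pool 1 replicate 5 the latter were -0.41 and -0.44 and both passed, and Kcnq5 also did in a fit of these groups alone (-0.39). The Kv4 gene Kcnd2 had 0.12 in Pool 1 over Control and -0.22 in Pool 2 over Pool 1, and the latter passed at -0.30 without Pool 1 replicate 5. The Kv3 genes Kcnc1, Kcnc2 and Kcnc4 had 0.15, 0.17 and -0.07 in Pool 1 over Control and 0.08, 0.09 and 0.25 in Pool 2 over Control, none past the threshold. The axonal genes Kcna1 and Kcna2 had 0.09 and 0.17 in Pool 1 over Control and -0.07 and 0.03 in Pool 2 over Control.

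Kcna5, a Kv1 gene better known from heart and vessels, was low throughout at 0.309 ± 0.148 RPKM (SD, n = 20). It had 1.05, 1.12, 0.582, 1.16 and 1.79 CPM in Pool 1 mice and 0.671, 0.516, 0.460, 0.477 and 0.796 in Control mice. In Pool 2 mice it had 0.594, 0.701, 0.625, 1.25 and 1.63 CPM and in Vehicle mice 1.56, 0.649, 0.686, 0.307 and 1.07. Pool 1 exceeded all Control mice in 4 of 5 mice, and the Vehicle mice, from 0.307 to 1.56 CPM, overlapped both groups. Pool 1 over Control came to 0.97 on the log2 scale (SE 0.38, unadjusted p = 0.01653 and adjusted p = 0.917 by edgeR, two-sided exact permutation p = 0.0238). It was 0.75 and no longer past the threshold without Pool 1 replicate 5. Pool 2 over Control was 0.72 and not past the threshold by edgeR. The study, in its own fit with DESeq2, lists Kcna5 as higher in both pools, and why the calls differ was not tested. The values of Kcna5 rest on 7 to 43 counts per library.

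**Figure D4:**
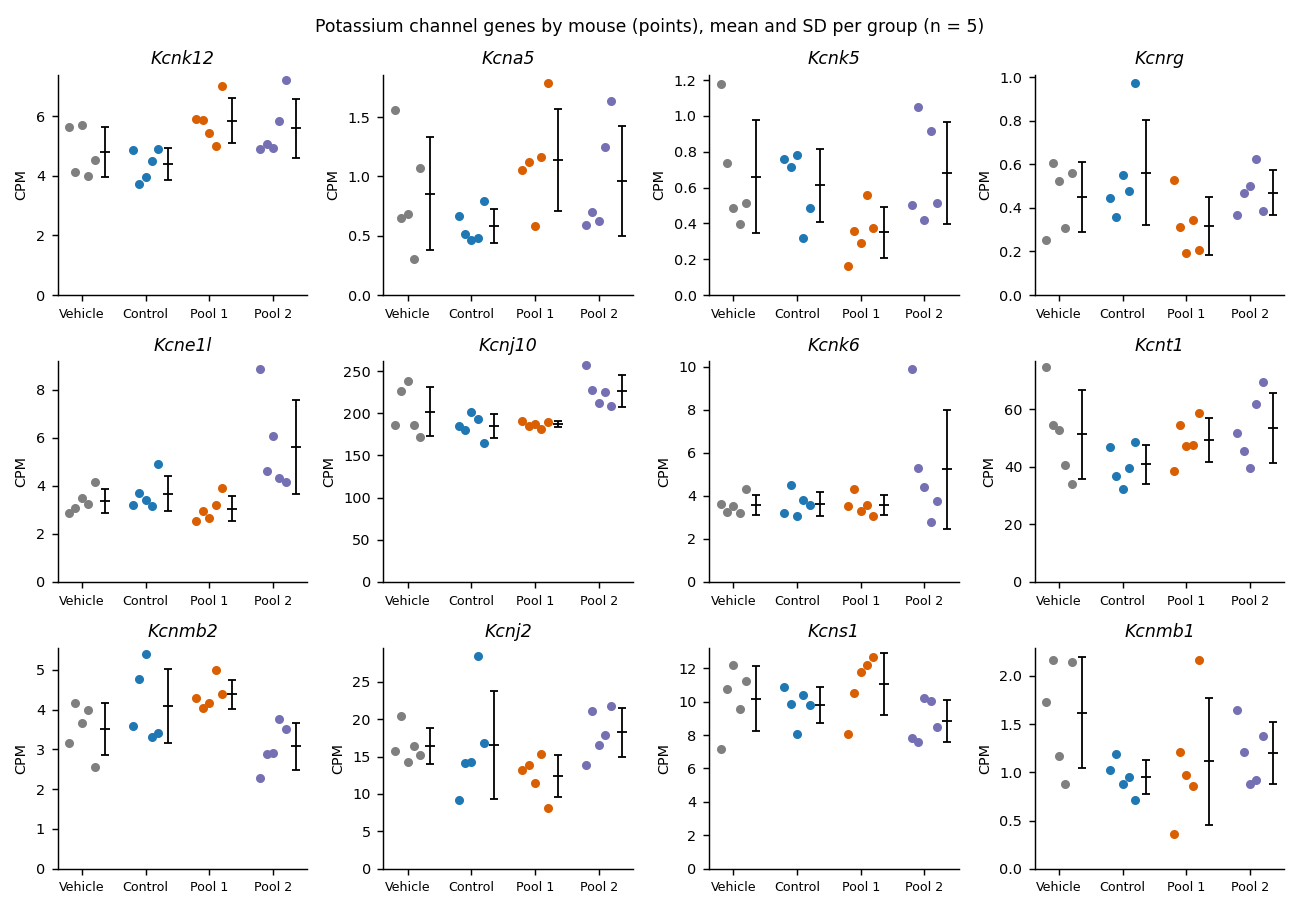
CPM of 12 genes by mouse, with points for replicates 1 to 5 of each group and the mean and SD (n = 5) beside them, on axes that start at 0. Kcnk12 in Pool 1 lies above every Control mouse, and Kcne1l and Kcnj10 in Pool 2 lie above every Pool 1 mouse.

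Among the leak channels, Kcnk12 was past the threshold in both pools, and the study also lists it as higher in both. It encodes THIK-2, a relative of the microglial THIK-1 that gives little current alone, at chr17:87745801-87797994. It had 5.91, 5.87, 5.44, 5.00 and 7.02 CPM in Pool 1 mice, compared with 4.89, 5.06, 4.92, 5.84 and 7.22 in Pool 2 mice. Control mice had 4.87, 3.73, 3.96, 4.49 and 4.91 CPM and Vehicle mice 5.65, 4.11, 5.69, 3.99 and 4.51. Every Pool 1 mouse lay above every Control mouse, which was so for 1 of the 88 genes (1.14%) and 0.861% of all genes, while Vehicle overlapped both. The log2 fold change over Control was 0.41 in Pool 1 (SE 0.15, unadjusted p = 0.01144 and adjusted p = 0.917 by edgeR, exact permutation p = 0.00794, the smallest that 5 against 5 allows). In Pool 2 it was 0.35 (SE 0.15, unadjusted p = 0.03055 and adjusted p = 0.5895 by edgeR, exact permutation p = 0.0159). Both comparisons use the same 5 Control mice, and Pool 2 over Pool 1 was -0.07. Pool 1 remained past the threshold under each of the 28 alternatives, and Pool 2 fell short in a fit of the compared groups alone (0.32) and without Control replicate 2 or 3 or Pool 2 replicate 4 or 5, at 0.24 to 0.33. The summed RNAs without a poly(A) tail were likewise higher in both pools, with medians of 22.0 CPM in Pool 1, 38.0 in Pool 2 and 6.63 in Control, and their part in Kcnk12 was not tested.

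Kcnk6, the gene of the leak channel TWIK-2, which macrophages and vessels are known to use, was past the threshold in Pool 2 through 1 mouse. It had 9.87 CPM in Pool 2 replicate 1 and 5.30, 4.42, 2.80 and 3.74 in the other 4 Pool 2 mice. Control mice had 3.04 to 4.48 CPM, Pool 1 mice 3.07 to 4.30 and Vehicle mice 3.20 to 4.33. Over Control, this gave a log2 fold change of 0.52 (SE 0.23, unadjusted p = 0.03349 and adjusted p = 0.6003 by edgeR, exact permutation p = 0.254), and it was 0.16 without that mouse. Over Pool 1 it was 0.55 (adjusted p = 0.499 by edgeR) and 0.19 without it. The same library had the highest microglial marker sum, 1408 CPM, and 4 of 10 microglial markers were higher in Pool 2 than in Control. What part these cells have in Kcnk6 was not tested.

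Kcnk5, the gene of the acid-sensitive TASK-2, was lower in Pool 1 than in either Control or Pool 2. It had 4, 8, 6, 13 and 9 counts in Pool 1 libraries, 17, 18, 17, 8 and 11 in Control, 11, 27, 10, 22 and 12 in Pool 2 and 28, 17, 12, 9 and 11 in Vehicle. Groups overlapped in every comparison. Pool 1 over Control was -0.80 on the log2 scale (SE 0.39, unadjusted p = 0.04922 and adjusted p = 0.917 by edgeR), and Pool 2 over Pool 1 was 0.96 (SE 0.38, unadjusted p = 0.01871 and adjusted p = 0.4628 by edgeR). The first was past the threshold in 10 of 28 alternatives, with a log2 fold change of -0.61 without Pool 1 replicate 1, and DESeq2 did not give it. The second was lost without Pool 1 replicate 1 (0.77) or Pool 2 replicate 2 (0.75) or 4 (0.83). The most expressed leak channel, Kcnk1, was at -0.17 on the log2 scale in Pool 1 over Control and at 0.16 in Pool 2 over Pool 1, with all 5 Pool 2 mice (85.8 to 101 CPM) above all 5 Pool 1 mice (79.6 to 85.7), and neither was past the threshold.

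Among the inward rectifiers, Kcnj10 was higher in every Pool 2 mouse than in every Control and Pool 1 mouse. It lies at chr1:172341210-172374085 and encodes Kir4.1, the channel by which astrocytes take up potassium. It had 257, 228, 213, 226 and 208 CPM in Pool 2 mice, 185, 181, 202, 193 and 165 in Control mice and 190.2, 185, 187, 182 and 189.5 in Pool 1 mice. Vehicle mice had 186, 226, 238, 186 and 172 CPM, so 2 of the 5 that received no sRNA reached the Pool 2 range. Groups did not overlap for 2 of 88 genes (2.27%) in Pool 2 over Control, Kcnj10 and the low Kcnn4, against 1.05% of all genes. In Pool 2 over Pool 1 this held for 4 of 88 (4.55%), Kcnj10, Kcne1l, Kcnmb2 and Kcnk1, against 1.41%.

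The log2 fold change of Kcnj10 over Control was 0.29 (SE 0.09, unadjusted p = 0.003218 and adjusted p = 0.4788 by edgeR, exact permutation p = 0.00794). Over Pool 1 it was 0.28 (SE 0.09, unadjusted p = 0.004543 and adjusted p = 0.3459 by edgeR, exact permutation p = 0.00794). Both fell just under 0.3 and so did not pass the threshold. Leaving out 1 library moved the first between 0.24 (without Pool 2 replicate 1) and 0.32 (without Control replicate 3), and the second between 0.23 (without the same mouse) and 0.30 (without Pool 2 replicate 5), so that some of these values passed 0.3. The 8 astrocyte markers summed to 4760 to 7589 CPM in Pool 2 and 4976 to 5981 in Control, with 1 of 8 past the threshold higher. Over 20 libraries Kcnj10 and that sum had a Pearson r of 0.518 and a Spearman rho of 0.320 in log2 values, and r was 0.231 without Pool 1 replicate 5 and Pool 2 replicate 1. The part of astrocyte number in Kcnj10 was not tested. Kcnj16, which pairs with Kcnj10 in astrocytes, had 0.10 in Pool 2 over Control and 0.16 over Pool 1.

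Kcnj2, the gene of the strong rectifier Kir2.1, was past the threshold in Pool 2 over Pool 1. It had 13.9, 21.1, 16.5, 17.8 and 21.8 CPM in Pool 2 mice, compared with 13.2, 13.9, 11.5, 15.3 and 8.14 in Pool 1 mice. Control mice had 9.16, 14.2, 14.3, 28.5 and 16.8 CPM, overlapping both pools, and Vehicle mice 14.3 to 20.5. Pool 2 over Pool 1 was 0.56 on the log2 scale (SE 0.22, unadjusted p = 0.02149 and adjusted p = 0.4753 by edgeR, exact permutation p = 0.0159), and it was lost without Pool 1 replicate 5 (0.44) or Pool 2 replicate 2 (0.50) or 5 (0.48). Among the neuronal rectifiers Kcnj3, Kcnj4, Kcnj6 and Kcnj9 no comparison passed the threshold in the fit of all libraries, and their log2 fold changes lay between -0.28 and 0.21. Kcnj6 did pass in Pool 2 over Pool 1 in a fit of these groups alone (-0.315). The pericyte gene Kcnj8 had 0.40 in Pool 2 over Control, short of the p required, with 3 of 10 endothelial and pericyte markers higher there. Kcnj8 and the sum of those markers had a Pearson r of 0.602 and a Spearman rho of 0.693 over 20 libraries, and r was 0.589 without the 2 farthest.

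Among accessory subunits, Kcne1l gave the smallest p of the 88 genes. It encodes a small single-span subunit, also named Kcne5, that dampens Kv7 currents in expression systems, and lies at chrX:142304752-142306294. Pool 2 mice had 8.87, 4.63, 6.08, 4.34 and 4.17 CPM and Pool 1 mice 2.55, 2.96, 2.67, 3.19 and 3.90. Control mice had 3.22, 3.69, 3.41, 3.14 and 4.91 CPM and Vehicle mice 2.87, 3.07, 3.51, 3.25 and 4.14. All 5 Pool 2 mice were above all 5 Pool 1 mice, and 2 of the 5 were above all Control mice. On the log2 scale, Pool 2 over Pool 1 was 0.88 (SE 0.20, unadjusted p = 0.0001903 and adjusted p = 0.1885 by edgeR, exact permutation p = 0.00794). DESeq2 gave that comparison an adjusted p of 0.0145.

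Over Control, the difference in Kcne1l was 0.61 on the log2 scale (SE 0.20, unadjusted p = 0.004837 and adjusted p = 0.4788 by edgeR, exact permutation p = 0.0397). Both comparisons were past the threshold under each of the 28 alternatives. Without Pool 2 replicate 1, the mouse with the high microglial sum, they were 0.39 over Control and 0.65 over Pool 1. In Pool 2 over Pool 1, 8 of 10 microglial and 10 of 10 thalamic markers were higher, and their part in Kcne1l was not tested. Of the other Kcne genes, Kcne3 had 18, 17, 10, 5 and 9 counts in Control libraries and 6, 8, 4, 5 and 3 in Vehicle libraries, past the threshold at these counts, with 4, 4, 10, 12 and 11 in Pool 1 and 0, 5, 8, 6 and 11 in Pool 2.

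The beta subunits of the BK channel did not move together. Kcnmb2, which makes the channel inactivate, lies at chr3:31902507-32200180 and had 2.29, 2.88, 2.92, 3.76 and 3.52 CPM in Pool 2 mice, compared with 4.29, 4.04, 4.17, 5.00 and 4.40 in Pool 1 mice. Control mice had 3.58, 4.76, 5.39, 3.30 and 3.40 CPM and Vehicle mice 3.16, 4.16, 3.67, 3.99 and 2.56. All 5 Pool 2 mice were below all 5 Pool 1 mice, whereas 3 of 5 were below all Control mice. The log2 fold change was -0.51 over Pool 1 (SE 0.18, unadjusted p = 0.007772 and adjusted p = 0.3823 by edgeR, exact permutation p = 0.00794), past the threshold in 28 of 28 alternatives. Over Control it was -0.41 (SE 0.18, unadjusted p = 0.02875 and adjusted p = 0.584 by edgeR), lost over 18 libraries (-0.32) and without Control replicate 2 or 3 or Pool 2 replicate 1, 2 or 3, at -0.39 to -0.29.

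The neuronal beta subunit Kcnmb4, at 13.5 ± 1.55 RPKM (SD, n = 20) the most expressed of the 3, had -0.01 in Pool 1 over Control and -0.05 in Pool 2 over Control. Kcnmb1, known from smooth muscle, had 1.03, 1.19, 0.875, 0.954 and 0.708 CPM in Control mice and 1.73, 2.16, 1.17, 0.878 and 2.14 in Vehicle mice. Control lay low, with 2 of its 5 mice below all Vehicle mice. Control over Vehicle was -0.76 on the log2 scale (SE 0.33, unadjusted p = 0.03262 and adjusted p = 0.7391 by edgeR), and it was past the threshold in 14 of the 20 fits that left out 1 library, with -0.63 without Vehicle replicate 2.

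The most expressed accessory genes differed little between groups. Kcnab2 had 0.15 in Pool 1 over Control and -0.06 in Pool 2 over Control on the log2 scale, and Kcnip2 0.01 and -0.09. Kcnab1, which adds an inactivation gate to Kv1 channels, had -0.27 in Pool 2 over Control (SE 0.13, unadjusted p = 0.04348 and adjusted p = 0.6305 by edgeR), under the threshold and past it without Control replicate 4 (-0.34) or Pool 2 replicate 5 (-0.37). Kcnrg, a regulator that holds back channel assembly, was past the threshold in Pool 1 at 13, 7, 4, 8 and 5 counts, against 10, 9, 12, 12 and 22 in Control. Its log2 fold change was -0.80 (SE 0.35, unadjusted p = 0.03324 and adjusted p = 0.917 by edgeR), past the threshold in 22 of 28 alternatives and at -0.51 without Control replicate 5.

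Among channels opened by calcium or sodium, Kcnt1, the gene of the sodium-activated channel Slack, was past the threshold in Pool 2 over Control. It had 51.6, 45.4, 39.4, 61.7 and 69.2 CPM in Pool 2 mice and 46.9, 36.8, 32.1, 39.7 and 48.5 in Control mice. Pool 1 mice had 38.4 to 58.6 CPM and Vehicle mice 33.8 to 74.4, and Vehicle overlapped each of the other groups. Pool 2 over Control was 0.39 on the log2 scale (SE 0.19, unadjusted p = 0.04963 and adjusted p = 0.6467 by edgeR, exact permutation p = 0.0794), past the threshold in 12 of 28 alternatives and at 0.28 without Pool 2 replicate 5. Kcnn4, the intermediate-conductance channel of immune cells, had 7, 8, 7, 8 and 6 counts in Pool 2 libraries and 0, 5, 4, 4 and 3 in Control, and the Vehicle libraries had 6, 11, 4, 1 and 3. Kcnma1 and Kcnn2 had 0.13 and 0.20 in Pool 1 over Control and -0.05 and 0.03 in Pool 2 over Control, none past the threshold.

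Among the 10 modifiers, 1 was past the threshold in Pool 2 over Pool 1, where 6.82% of all genes were, and none in the other comparisons. Kcns1, a partner of Kv2 channels, had 7.82, 7.56, 10.2, 10.1 and 8.51 CPM in Pool 2 mice, compared with 8.05, 10.5, 11.8, 12.2 and 12.7 in Pool 1 mice. Control mice had 8.06 to 10.9 CPM and Vehicle mice 7.16 to 12.2, and Pool 2 overlapped each of the other groups. The log2 fold change of Pool 2 over Pool 1 was -0.32 (SE 0.14, unadjusted p = 0.03503 and adjusted p = 0.5374 by edgeR), lost over 18 libraries (-0.28) and in 6 of the 20 fits that left out 1 library, with -0.27 without Pool 1 replicate 5.

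Of 21 genes whose products assemble with or anchor potassium channels, or form the related hyperpolarization-activated channels, 19 were in the table. In Pool 1 over Control 0 of 19 were past the threshold by edgeR, against 3.48% of all genes. The count was 1 in Pool 2 over Control (6.22% of all genes), 2 in Pool 2 over Pool 1 (6.82%) and 2 in Control over Vehicle (5.1%). In Pool 2, the mean of Hcn4, a pacemaker channel gene strong in the thalamus, was higher than in Control (log2 fold change 0.97) and in Pool 1 (1.04), with adjusted p = 0.5693 and 0.4348 by edgeR. Its spread in Pool 2 was wide, at 4.11 ± 3.20 CPM (SD, n = 5), against 2.10 ± 0.559 in Control and 2.00 ± 0.432 in Pool 1. Thalamic markers summed to 144 to 643 CPM in Pool 2 against 134 to 275 in Control and 105 to 146 in Pool 1. Whether thalamic tissue has a part in Hcn4 was not tested. Cntnap2, which clusters Kv1 channels beside the node of Ranvier, was at -0.31 in Pool 2 over Pool 1, and Cntn2, which does so with it, at -0.33 in Control over Vehicle. Abcc9, the sulfonylurea receptor that pairs with Kcnj8, was at -0.38 in Control over Vehicle. The Kv4 partners Dpp6 and Dpp10 and the Kv2 partner Amigo1 passed in none of the comparisons, with log2 fold changes between -0.08 and 0.11.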

How the data were processed

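The values were counts of sequencing reads per gene in 20 mouse libraries. As deposited by the authors, they are raw, without normalization: stranded libraries of polyadenylated RNA were sequenced as single reads of 50 nt, aligned with STAR (build mm10) after FastQC 0.11.5, and genes with a summed count under 10 are absent. Groups came from the labels. The potassium channel genes and all gene lists were chosen with earlier results of these data known.

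Here, counts of all 25190 genes were scaled by TMM, and edgeR 4.0.16 in R 4.3.3 tested them (robust quasi-likelihood fit, glmQLFTest) in 1 fit of the 4 groups, with Benjamini-Hochberg adjustment. Standard errors are the fold change divided by the root of F. CPM are TMM-scaled, log2 CPM used a prior count of 2, and exon lengths came from GENCODE release M21 (99.8% of genes). Correlations used log2 values. Exact permutation tests of log2 CPM were two-sided; 5 against 5 cannot go below 0.00794. The named genes were those past the threshold, the 15 highest by RPKM, markers of cell types, and, by name, genes under 3 counts; genes outside this rule were chosen after their values were seen. Of the 88 genes, 2 are counted in the totals but not reported here. The scripts were tested on simulated data. Nothing says whether the mice of a group came from separate litters or cages, so p-values measure only the spread between these mice. Of the 40 pairs of replicates within a group, none agreed within counting error (chi-square per degree of freedom 8.07 to 66.5). The alternatives were DESeq2 1.42.0, its size factors, the default spread, 2 filters, a fit of the compared groups alone, a replicate block, 18 libraries, each library left out, and the longest transcript.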

Additional observations from a re-analysis of the deposited data

Results flagged for a closer look

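In 8 cases 1 mouse lay far from the other 4 of its group, by Dixon's test of the gap to the nearest mouse, and all 8 were high. The test looked at 156 groups (the 39 named genes in 4 groups), and chance alone marks about 1 in 20. Kcne2 had 50.5 CPM in Vehicle replicate 4 against 1.05 to 5.67 in the other Vehicle mice, 17.0 in Control replicate 3 against 0.318 to 1.83, and 13.6 in Pool 2 replicate 3 against 0.594 to 1.25. Kcnj13 had 68.7 CPM in Vehicle replicate 4 against 1.33 to 9.52, 15.2 in Control replicate 3 against 0.477 to 3.22, and 8.42 in Pool 2 replicate 3 against 0.411 to 2.25. Choroid plexus markers were highest in these same 3 libraries. The immune and neuronal Kv1 gene Kcna3 had 6.96 CPM in Pool 1 replicate 1 against 3.24 to 4.22, and the rectifier gene Kcnj4 had 87.5 CPM in Pool 1 replicate 5 against 60.8 to 68.0.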

How the results depend on the processing

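Of the 18 gene and comparison pairs past the threshold, 4 were past it under every alternative: Kcnk12 in Pool 1 over Control, Kcne1l in Pool 2 over Control and over Pool 1, and Kcnmb2 in Pool 2 over Pool 1. The number of potassium channel genes past the threshold in Pool 1 over Control was 4, and 2 with only the groups compared or with a replicate block. In Control over Vehicle it was 2, and 1 when only genes with a mean normalized count of 10 or more were tested, since Kcne3 was then not tested. Leaving out 1 library gave 1 to 6 genes in Pool 1 over Control (1 without Pool 1 replicate 5, 2 without Pool 1 replicate 2 or 3), 3 to 11 in Pool 2 over Control (3 without Control replicate 3 or Pool 2 replicate 1, 11 without Control replicate 4), 4 to 9 in Pool 2 over Pool 1 and 1 to 4 in Control over Vehicle (4 without Vehicle replicate 5). Without Vehicle replicate 4 and Pool 2 replicate 1 together (18 libraries) the 4 counts were 4, 4, 4 and 3.

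Among the 36 gene and comparison pairs recomputed under each alternative, only 4 changed direction, all of Kcne2 or Kcnj13. Control over Vehicle for Kcne2 ran from -3.70 to 0.24 with 1 library left out, and was 0.24 over 18 libraries. Pool 2 over Control ran from -2.40 to 1.76 for Kcne2 and from -1.59 to 1.10 for Kcnj13, and Pool 2 over Pool 1 from -0.067 to 2.41 for Kcne2. The cause was not tested.

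Replicate numbers did not pair the mice: same-numbered mice had correlations of their deviations from -0.321 to 0.265. With the replicate block, the 4 counts were 2, 6, 8 and 2. Depth limited the 9 genes under a mean normalized count of 10, for which a difference of a few counts sets the fold change. All-gene medians stayed between -0.024 and 0.029 under every setting.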

Other observations

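Beside Kcne2 and Kcnj13, some genes spread widely between mice of a group, and those named here were chosen after their values were seen. Kcna1, an axonal Kv1 gene, had 33.9 CPM in Vehicle replicate 5, 35.2 in Control replicate 1 and 41.2 in Pool 1 replicate 5, against 50.2 to 115 in the other 17 libraries. Kcnh7, an erg-type channel gene, had 165.7 CPM in Pool 1 replicate 2 and 39.6 in Pool 1 replicate 5, the Pool 1 mice thus spanning more than the range of all Vehicle (56.7 to 101 CPM) and Control mice (57.3 to 97.1 CPM). The modifier gene Kcng3 had 0.179 CPM in Control replicate 1 and 3.03 in Pool 1 replicate 1, the lowest and the highest of the 20 libraries. None of the 3 genes was past the threshold in any of the 4 comparisons. Control replicate 1 and Vehicle replicate 5 were also the lowest libraries in the mean of the pore-forming voltage-gated genes, at 4.75 and 4.77 log2 CPM.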
